A study of Mus musculus with 31 samples.

Results

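The heat shock chaperone genes are 10 genes of the mouse thalamus data, taken by name. Hspa1a, Hspa1b, Hsp90aa1, Hsph1, Dnajb1 and Hspb1 are kept as the 6 inducible genes, and Hspa8, Hspa5, Hsp90ab1 and Hspe1 as the 4 constitutive genes. All 10 were found among the 25497 genes that could be matched, and all 10 passed the filter on low counts that left 14886 genes for testing. The study is bulk RNA-seq of polyadenylated RNA from the thalamus of mice at postnatal day 90, in 31 libraries that the labels number separately and that are taken here as 1 animal each. The groups are 7 male and 8 female offspring of mothers reared in social isolation (SIR), and 8 male and 8 female offspring of control mothers. The labels name no litter or batch. No offspring was itself labelled as treated, so housing refers to the mother throughout. Because the tissue is bulk, fewer cells of a type and less RNA per cell cannot be told apart.

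Chaperones hold unfolded proteins and help them reach their folded state. When unfolded protein builds up in the cytosol, heat shock factor 1 binds heat shock elements in promoters and raises the inducible chaperones, while the constitutive relatives are made in resting cells as well. In the endoplasmic reticulum (ER), a separate unfolded protein response raises Hspa5 through ER stress elements. Neurons are known to hold large amounts of the constitutive chaperones at rest.

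The promoters show the letters through which these responses are known to act, and 5 of them are printed as the 250 bases before the annotated transcription start, from RefSeq in the build GRCm38.p6. That build is older than the build GRCm39 named for the deposited values. Promoters were matched for 7 of the 10 genes, and Hspa8, Hsp90aa1 and Hsp90ab1 are named only. Capitals mark the motif that was searched for, on both strands. The motif is GAANNTTC (2 heat shock units head to head) for Hspa1a and Hspb1, TTCNNGAA (2 units tail to tail) for Hsph1, the 3-unit element (GAANNTTC with NNGAA directly after it) for Hspe1, and the ER stress element (CCAAT, 9 bases of any kind, then CCACG) for Hspa5, whose search was added after the sequences had been seen.
Hspa1a: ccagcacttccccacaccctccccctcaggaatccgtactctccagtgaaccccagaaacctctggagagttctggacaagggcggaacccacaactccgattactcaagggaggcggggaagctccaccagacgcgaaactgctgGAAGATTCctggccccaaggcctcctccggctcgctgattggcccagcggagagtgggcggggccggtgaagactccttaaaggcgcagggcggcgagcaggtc
Hsph1: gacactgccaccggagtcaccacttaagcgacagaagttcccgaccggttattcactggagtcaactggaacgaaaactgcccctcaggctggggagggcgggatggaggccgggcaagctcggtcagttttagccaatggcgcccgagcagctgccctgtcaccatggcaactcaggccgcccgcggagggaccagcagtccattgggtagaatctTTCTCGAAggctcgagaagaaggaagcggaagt
Hspb1: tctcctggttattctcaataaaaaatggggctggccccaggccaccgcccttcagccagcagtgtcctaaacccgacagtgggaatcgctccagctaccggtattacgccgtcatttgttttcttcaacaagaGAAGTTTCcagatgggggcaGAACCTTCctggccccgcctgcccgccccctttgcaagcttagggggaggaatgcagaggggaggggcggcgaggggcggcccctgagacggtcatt
Hspe1: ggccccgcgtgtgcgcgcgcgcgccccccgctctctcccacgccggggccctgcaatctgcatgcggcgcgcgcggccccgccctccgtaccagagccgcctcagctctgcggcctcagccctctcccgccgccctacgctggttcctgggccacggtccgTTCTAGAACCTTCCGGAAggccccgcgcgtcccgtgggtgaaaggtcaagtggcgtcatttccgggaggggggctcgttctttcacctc
Hspa5: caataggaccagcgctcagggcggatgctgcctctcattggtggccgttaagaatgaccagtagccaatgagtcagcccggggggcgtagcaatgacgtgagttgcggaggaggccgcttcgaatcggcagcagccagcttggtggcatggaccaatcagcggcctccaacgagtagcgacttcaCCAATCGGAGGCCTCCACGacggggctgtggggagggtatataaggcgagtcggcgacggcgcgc
Hspa1a lies at chr17:34972157-34972406 on the minus strand, Hsph1 at chr5:149636337-149636586 on the minus strand, Hspb1 at chr5:135887669-135887918 on the plus strand, Hspe1 at chr1:55087898-55088147 on the plus strand and Hspa5 at chr2:34771840-34772089 on the plus strand. The Hspa1a motif lies 104 to 97 bases before the start. The upstream bases of Hspa1b held the same motif at the same place and differed from those of Hspa1a at 3 of 250 positions. In Hspe1, 2 overlapping 3-unit elements on opposite strands span the bases 89 to 72 before the start, and each also contains both shorter motifs. Hsph1 had a further 3-unit element 37 to 49 bases after its start, outside the printed stretch. Of 32851 promoters in the table, counted over 250 bases before to 50 after the start, 0.603% held the 3-unit motif, 7.86% held GAANNTTC, 8.52% held TTCNNGAA and 0.119% held the ER stress element. Neither promoter of Dnajb1 held any of the heat shock motifs as spelled here, which says only that these letters were not in the window.

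In these libraries the constitutive cytosolic HSP70 was by far the most abundant of the 10 transcripts, and the stress-inducible HSP70 pair was the least. In transcripts-per-million (TPM), which scale for length, the mean over the 31 libraries was 4256 for Hspa8, 1735 for Hsp90ab1, 1615 for Hsp90aa1, 436.2 for Hspa5 and 415.9 for Hsph1. Hspe1 followed at 160.6 TPM, Dnajb1 at 40.5 TPM, Hspb1 at 39.1 TPM, Hspa1a at 11.9 TPM and Hspa1b at 9.59 TPM. Neighbours in this order whose ranges did not overlap were Hspa8 and Hsp90ab1, Hsp90aa1 and Hspa5, Hsph1 and Hspe1, Hspe1 and Dnajb1, and Hspb1 and Hspa1a. Hsp90ab1 exceeded Hsp90aa1 in 24 of 31 libraries, Hspa5 exceeded Hsph1 in 22, Dnajb1 exceeded Hspb1 in 17, and Hspa1a exceeded Hspa1b in 26. Hsp90aa1 and Hsph1, which belong to the inducible genes, stood among the abundant ones in this tissue. Together the 10 genes took between 0.653% and 0.83% of the counts of a library.

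The order of spread between animals was nearly the reverse. On counts-per-million (CPM) scaled between libraries, the coefficient of variation over the 31 libraries was 5.22% for Hsp90ab1, 6.96% for Hsp90aa1, 7.24% for Hspa8 and 8.51% for Hspe1. It was 11.6% for Dnajb1, 13.2% for Hspa5, 13.3% for Hsph1 and 17.3% for Hspb1. Hspa1a reached 28.6% and Hspa1b 54.4%, with the highest library at 5.64 times the lowest for Hspa1b. Total counts ran from 13 to 25.74 M (mega) per library, so even Hspa1b rested on a mean of 221 to 347 estimated counts per library in the 4 groups.

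Defining genes of thalamic neurons were present in every library, with Tcf7l2 at 223.4 to 446.2 CPM, Slc17a6 at 300.9 to 504.5 CPM and Prkcd at 795.8 to 1937 CPM. Summed choroid plexus markers (9 of 9 measured) ran from 23.2 to 41.8 CPM in SIR males, 30.8 to 75.9 CPM in control males, 28.7 to 276 CPM in SIR females and 28.3 to 1868 CPM in control females. The sum of 10 hypothalamic markers, of which 9 passed the filter on low counts, also varied widely, between 23.7 and 513.6 CPM over all libraries. In the library labelled SIR female 5, 4 Y-linked genes summed to 75.1 CPM, against 60.5 to 85.8 CPM in libraries labelled male and 0.402 to 1.03 CPM in the other libraries labelled female. It goes against its label. Values without it are given for the Hspa5 calls and for some counts of calls, and all other values count it as a female. Every SIR library carries a lower number than every control library, so number range and housing cannot be told apart.

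Hspa1a and Hspa1b encode the cytosolic HSP70 that stress induces, and lie close to each other on chromosome 17. Both varied widely between animals, and the highest values of each were those of males. Hspa1a had a lowest value of 11.5, a median of 14.5 and a highest value of 26.8 CPM in SIR males, against 10.03, 15.6 and 25.2 CPM in control males. It had 12.2, 13.96 and 19.6 CPM in SIR females, against 10.8, 18.2 and 21.1 CPM in control females. Housing groups overlapped in both sexes. Libraries 1, 14 and 15 of the SIR males lay between 24.4 and 26.8 CPM and libraries 22, 23 and 25 of the control males between 22.7 and 25.2 CPM, while the remaining males lay between 10.03 and 15.9 CPM.

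Hspa1b spread even more. It had 6.44, 8.39 and 23.8 CPM (lowest, median, highest) in SIR males, against 5.73, 12.3 and 29.8 CPM in control males, and 5.65, 7.77 and 15.1 CPM in SIR females, against 5.28, 13.2 and 17.5 CPM in control females. The 3 control males high for Hspa1a were also the highest for Hspa1b, at 26.03 to 29.8 CPM, and SIR male 1 followed at 23.8 CPM. The other SIR males high for Hspa1a came next in their group. SIR male 15 was at 17.4 CPM and SIR male 14 at 11.3 CPM, with SIR male 4 below them at 8.39 CPM. Control female 17 was at 17.5 CPM. The log2 fold change of SIR against control as the mean of both sexes was -0.44 ± 0.25 for Hspa1b (SE, adjusted p = 0.308) and -0.09 ± 0.14 for Hspa1a (adjusted p = 0.765), so neither difference passed the threshold. The transcripts of both genes share much of their sequence, since 63.8% of the 31-base words of Hspa1a occur in Hspa1b and 67.6% of those of Hspa1b occur in Hspa1a. How the quantifier split reads between them is therefore uncertain, and summing them as 1 gene did not give a call either.

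Hsp90aa1, the stress-inducible cytosolic HSP90, was slightly lower in offspring of isolated mothers in both sexes, short of the threshold. It had 1318, 1428 and 1698 CPM in SIR males, against 1451, 1533 and 1687 CPM in control males. In females it had 1431, 1520 and 1662 CPM in SIR animals, against 1523, 1612 and 1787 CPM in controls. In 6 of 7 SIR males and 7 of 8 SIR females the value lay below the median of the controls of that sex, while the groups overlapped. The log2 fold change was -0.08 ± 0.03 over both sexes (unadjusted p = 0.0177, adjusted p = 0.133). Without SIR male 14, whose Hsp90aa1 was the highest of its group, it was -0.10 with an adjusted p of 0.0443. None of the other 30 fits that left out 1 library passed, and without SIR male 1 the adjusted p was 0.266. On log2(TPM + 1) the fold change was -0.17 with an adjusted p of 0.0293. One transcript, ENSMUST00000021698, carried 77.0% to 82.9% of its counts in each library. A retained-intron transcript of 325 bases carried between 0.07% and 1.65%. So short a transcript weighs more in TPM than in counts, and its part in the larger change on TPM was not tested.

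Hsph1 encodes HSP110, the nucleotide exchange factor that resets HSP70. In SIR males it had 366.2, 406.6 and 588.7 CPM, against 332.5, 424.3 and 474.8 CPM in control males. In SIR females it had 380.6, 457.6 and 487.7 CPM, against 444.2, 489.3 and 569.5 CPM in control females. All 8 SIR females lay below the median of the control females, with overlap between the groups. The log2 fold change was -0.17 ± 0.08 in females (adjusted p = 0.245) and 0.08 ± 0.08 in males (adjusted p = 0.685), and the difference between these effects was 0.24 ± 0.12 (adjusted p = 0.307). SIR males 14 and 15 were the highest of their group, at 588.7 and 505.6 CPM.

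Dnajb1 encodes the J protein HSP40 that hands clients to HSP70, and Hspb1 encodes the small heat shock protein HSP27. Dnajb1 had 52.9, 63.2 and 68.7 CPM in SIR males, against 58.2, 65.01 and 78.2 CPM in control males, and 48.5, 62.2 and 72.0 CPM in SIR females, against 54.2, 72.1 and 75.4 CPM in control females. All 8 SIR females lay below the control females' median, and the fold change in females was -0.15 ± 0.08 on the log2 scale (adjusted p = 0.295). Hspb1 had 11.9, 16.9 and 19.7 CPM in SIR males, against 9.57, 18.1 and 20.4 CPM in control males, and 10.4, 16.2 and 19.6 CPM in SIR females, against 13.7, 16.9 and 20.3 CPM in control females. Its groups lay nearly on top of each other, with a log2 fold change of -0.07 ± 0.10 over both sexes (adjusted p = 0.73). Of the 31-base words of Hspb1, 41.9% also occur in the gene model Gm9817, which received 75 estimated counts over all 31 libraries.

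**Figure D1:**
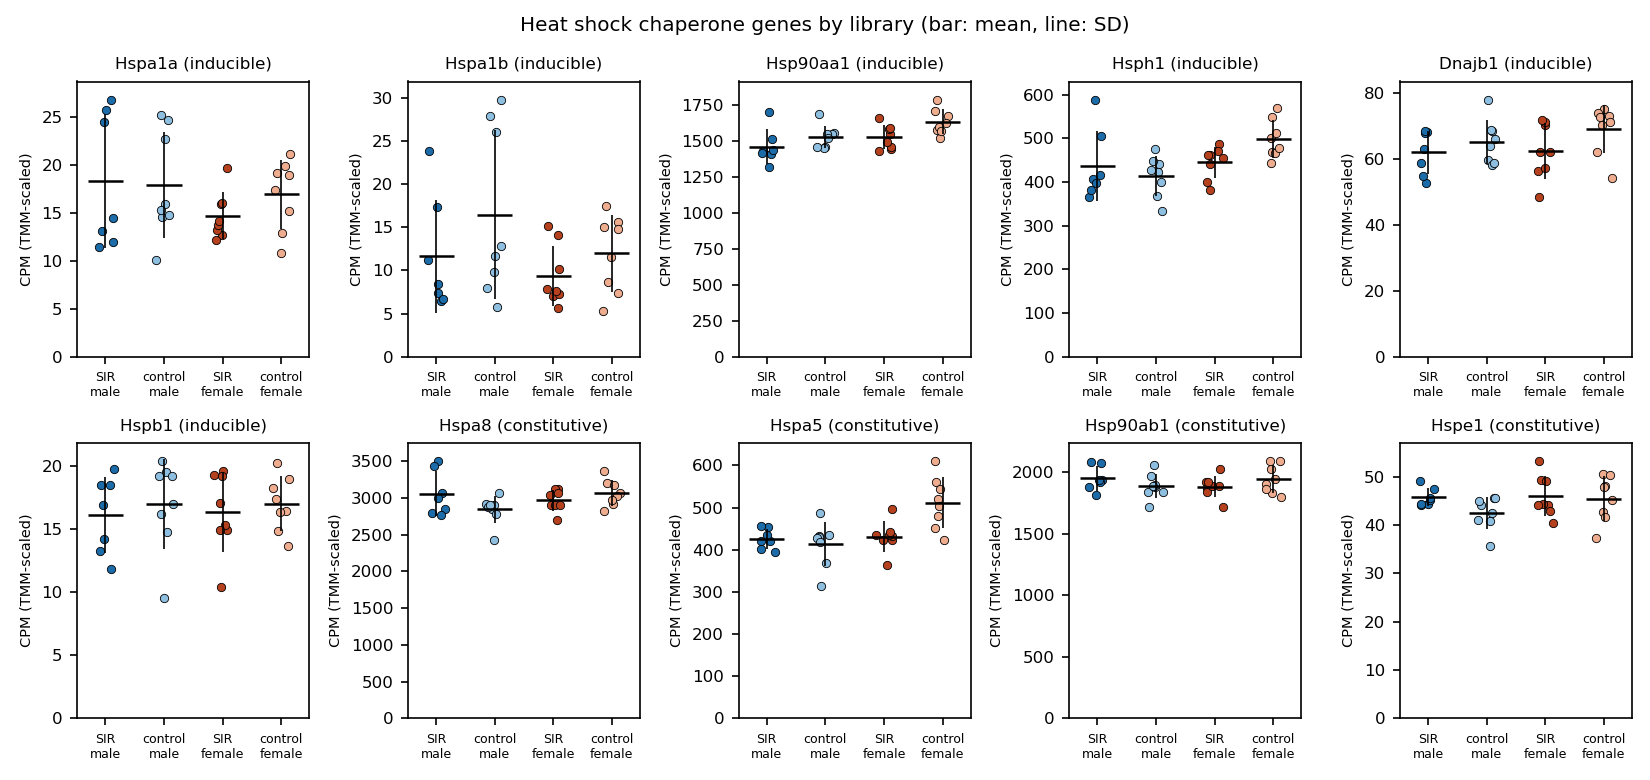
CPM (TMM-scaled, linear axis from 0) of the 10 chaperone genes in SIR males, control males, SIR females and control females. Each point is 1 library, the bar is the group mean and the line the SD. The 3 high libraries in each male group are visible for Hspa1a, and control females stand highest for Hspa5.

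Among the constitutive genes, Hspa5 was the one that differed by group, being highest in control females. Hspa5 encodes BiP, the HSP70 of the ER lumen. It had 395.6, 421.5 and 456 CPM in SIR males, against 314, 429 and 487.9 CPM in control males. In SIR females it had 363.4, 433.2 and 496.7 CPM, against 424, 512.5 and 610.6 CPM in control females. All 8 SIR females lay below the control females' median, while the stretch in which the groups overlap, from 424 to 496.7 CPM, held 5 SIR females and control females 24, 29 and 31.

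Hspa8 encodes HSC70, the resting cytosolic HSP70 that also strips clathrin coats from vesicles. It had 2765, 2999 and 3505 CPM in SIR males, against 2434, 2897 and 3072 CPM in control males, and 2702, 2974 and 3121 CPM in SIR females, against 2821, 3047 and 3369 CPM in control females. The male difference was 0.11 ± 0.05 on the log2 scale (adjusted p = 0.29) and the female one -0.05 ± 0.05 (adjusted p = 0.644). Hsp90ab1, the constitutive HSP90, kept within 1720 to 2091 CPM in all 31 libraries and had a log2 fold change of 0.00 ± 0.03 over both sexes (95% interval -0.06 to 0.06, adjusted p = 0.989). Hspe1, the mitochondrial chaperonin partner HSP10, had 44.2, 45.1 and 49.2 CPM in SIR males, against 35.7, 43.2 and 45.6 CPM in control males. All 7 SIR males lay above the control males' median, with a log2 fold change of 0.11 ± 0.06 (adjusted p = 0.373). In females Hspe1 had 40.4, 44.3 and 53.2 CPM in SIR animals, against 37.4, 46.5 and 50.6 CPM in controls. Of its 31-base words, 23.1% occur in the gene model AC117239.2, which received 77 estimated counts in all libraries.

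The comparison of housing asks whether the offspring of isolated mothers differ from those of control mothers. Over both sexes, none of the 10 chaperone genes passed the edgeR quasi-likelihood test at an adjusted p of 0.05, against 4.55% of all tested genes (1 of the 10 had an unadjusted p under 0.05). The share of all genes lay between 1.48% (without control male 25) and 7.01% (without control female 20) with 1 library left out, and 14 of those 31 fits moved it by over 1.5 times. It was 2.07% without the library labelled SIR female 5 and 0.524% with the trend of counts with transcript length removed. Without the 8 libraries whose label numbers lie apart from the rest, 0 genes passed in edgeR and 2031 had an unadjusted p under 0.05. DESeq2 called 0 of the 10 as well, and limma-voom with sample weights called 1, Hsp90aa1. All 6 inducible genes had negative fold changes, with a median of -0.09 beside -0.01 over all tested genes, and the 4 constitutive genes had a median of 0.02. The 10 genes vary together between animals, so the shared sign is not 6 separate observations. In males none of the 10 passed, against 1.33% of tested genes, none had an unadjusted p under 0.05, and DESeq2 and limma-voom called 0. That 1.33% became 0.114% without SIR male 15 and 3.4% without control male 27, and 10 of the 31 fits without 1 library moved it by over 1.5 times. Without control male 22, 0 genes passed in edgeR and 2193 had an unadjusted p under 0.05. With scores of choroid plexus, hypothalamus and midbrain markers in the fit, each the mean log2 CPM of its markers after centring, the share was 4.66%. In males the median of the inducible genes was -0.07, while all 4 constitutive genes were positive with a median of 0.08.

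In females 1 of the 10 genes fell in offspring of isolated mothers, namely Hspa5, against 4.62% of tested genes called in either direction and 2.24% called lower. Its log2 fold change was -0.25 ± 0.07 (adjusted p = 0.0387), with a mean of 431.4 ± 36.2 CPM in SIR females and 512.1 ± 60.6 CPM in control females (SD, n = 8 each). The adjusted p was 0.0573 without the library labelled SIR female 5, 0.0728 without control female 20 and 0.0904 on log2(TPM + 1), and in all the call was lost in 12 of the 31 fits that left out 1 library. The share of all tested genes called in females lay between 2.42% and 5.58% in those fits. Under the other settings it lay between 0.302% (without the 8 libraries whose numbers lie apart) and 8.07% (limma-voom). All 6 inducible genes were negative in females too, with a median of -0.16 beside -0.01 over all genes. Summed choroid plexus markers had a median of 35.4 CPM in SIR females and 83.1 CPM in control females, and 2 of the 9 fell (median log2 change over the 9 of -1.99). Of the 3 midbrain markers tested 2 fell. Summed over all 9 midbrain markers listed, the median was 7.86 CPM in SIR females (2.69 to 15.6) and 14.8 CPM in control females (6.44 to 68.9). Of the 11 mural and meningeal markers 2 fell, with summed medians of 290.5 CPM in SIR females and 324.1 CPM in control females. With the 3 region marker scores in the fit the Hspa5 difference was -0.33 (adjusted p = 0.0549). Over the 31 libraries Hspa5 had r = 0.51 with the choroid plexus score (adjusted permutation p = 0.0182 over 3 scores) and rho = 0.34 (adjusted permutation p = 0.126). The relation rested on the 2 libraries farthest from the median, with r = 0.22 without them (adjusted permutation p = 0.54), and was r = 0.28 after centring on group means (adjusted permutation p = 0.285). For the hypothalamus and midbrain scores r was -0.20 and 0.13 (rho -0.32 and 0.04), and neither passed. Within SIR males, control males, SIR females and control females, in this order, r was -0.44, -0.42, -0.61 and 0.88 for the hypothalamus score. It was -0.49, -0.26, -0.57 and -0.23 for the midbrain score, and -0.12, -0.21, 0.60 and 0.38 for the choroid plexus score. These values within groups were not tested. Of the 10 oligodendrocyte markers 5 fell and 0 rose. Summed, they ran from 7602 to 10730 CPM in SIR females, against 10130 to 12230 CPM in control females, and their part in the Hspa5 difference was not tested.

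None of the 10 genes passed the test that sets the effect of maternal housing in males against that in females, against 2.83% of tested genes, 1.08% with a positive and 1.75% with a negative difference of the male minus the female effect (3 of the 10 had an unadjusted p under 0.05). Hspa5 had 0.29 ± 0.10 (adjusted p = 0.124) and Hspa8 0.15 ± 0.07 (adjusted p = 0.305), so the call in females is not shown to be particular to females. DESeq2 and limma-voom also called 0 in this comparison. The median over the 4 constitutive genes was 0.12 and over the 6 inducible genes 0.05, beside 0.00 over all tested genes.

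Between the sexes, Hspa5 was the one chaperone gene that passed, lower in males than in females. It was 1 of 10, against 10.1% of tested genes called in either direction and 5.65% called lower in males. Its log2 fold change, males over females, was -0.16 ± 0.05 (adjusted p = 0.0395). Of the 15 male libraries 12 lay below the female median, and the ranges overlapped. The sexes lay close among SIR animals, with means of 426.5 CPM in males and 431.4 CPM in females. Among controls the means were 414.1 CPM in males and 512.1 CPM in females. The same high control females thus enter both this call and the housing call in females. Hsph1 was at -0.15 ± 0.06 (adjusted p = 0.102) and Hsp90aa1 at -0.08 ± 0.03 (adjusted p = 0.115). Without SIR male 14 both passed, at -0.19 (adjusted p = 0.014) and -0.10 (adjusted p = 0.0286), but neither passed in the other 30 fits that left out 1 library. The Hspa5 call was lost in 16 of the 31 fits that left out 1 library, with an adjusted p of at most 0.0723. It was -0.16 (adjusted p = 0.0466) without the library labelled SIR female 5 and -0.13 (adjusted p = 0.209) with the region marker scores in the fit. The share of all tested genes called between the sexes was 3.98% with those scores. Under the other settings it lay between 3.46% (without the 8 libraries whose numbers lie apart) and 20.4% (limma-voom).

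**Figure D2:**
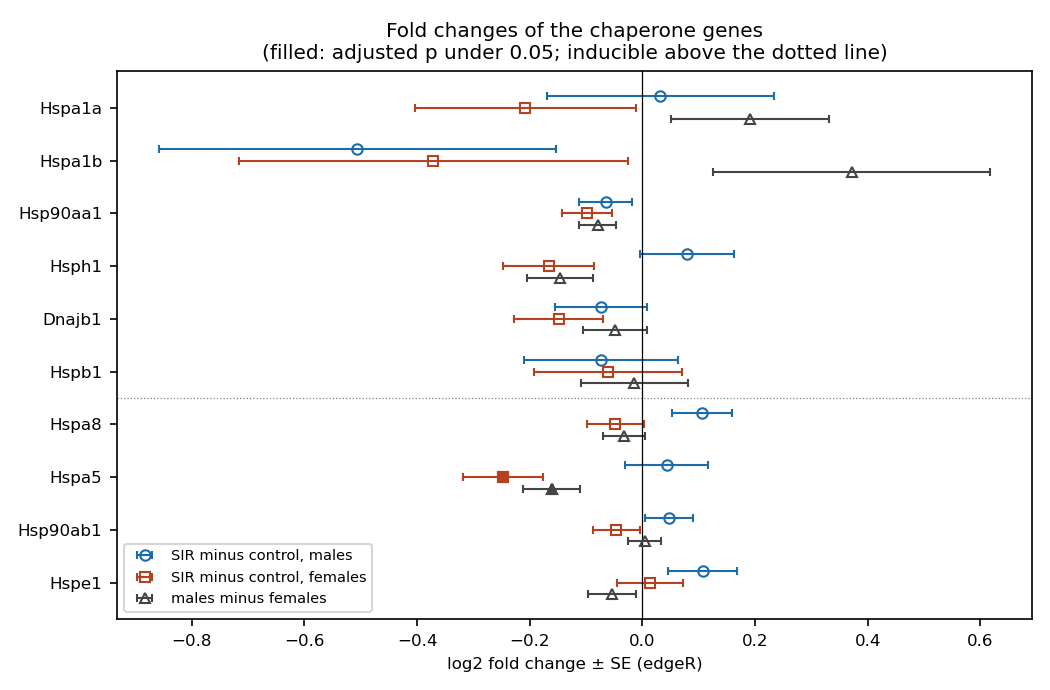
Log2 fold changes with SE of the 10 genes for SIR minus control in males, SIR minus control in females, and males minus females. Filled symbols passed an adjusted p of 0.05, which holds for Hspa5 in females (-0.25) and between the sexes (-0.16).

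Animals that were high for 1 chaperone gene tended to be high for the others. Across the 31 libraries all 45 pairs of the 10 genes had a positive Pearson correlation of log2 CPM, with a median r of 0.5 and a range of 0.12 to 0.89. By permutation test with adjustment over the 45 pairs, 35 passed, and 39 passed after each group had been centred on its mean. The share of all gene pairs that would pass was not computed, so these counts do not set the chaperone genes apart. Among 14885 other tested genes ranked by centred r with Hspa8, Hsph1 stood 5th and Hsp90ab1 6th. Dnajb1 stood 1202nd and Hspa1b 1931st, so many genes outside the 10 were closer to Hspa8 than these. All values come from the same libraries and share their depth, dissection and RNA quality.

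Within this shared variation, Hspa1a and Hspa1b formed the tightest pair, with r = 0.89 and Spearman's rho = 0.90 (adjusted permutation p = 9e-05, from the smallest p that 100000 resamples can give), and r = 0.88 without the 2 libraries farthest from the median. They share much of their sequence, as given above. Hsp90aa1 and Hsph1 followed with r = 0.81 and rho = 0.82 (adjusted permutation p = 9e-05; r = 0.76 without the 2 farthest libraries). Hspa8 and Hsp90ab1 had r = 0.80 and rho = 0.66 (adjusted permutation p = 9e-05; r = 0.74 without the 2 farthest). Hspa1b and Hsp90aa1, both inducible, had r = 0.12 and rho = 0.30 (adjusted permutation p = 0.515), and Hspa1b and Hsph1 had r = 0.17 and rho = 0.29 (adjusted permutation p = 0.376). The inducible genes did not all vary alike, since SIR male 1 was among the highest for Hspa1a and Hspa1b and was the lowest of its group for Hsp90aa1 (1318 CPM) and Hsph1 (366.2 CPM).

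**Figure D3:**
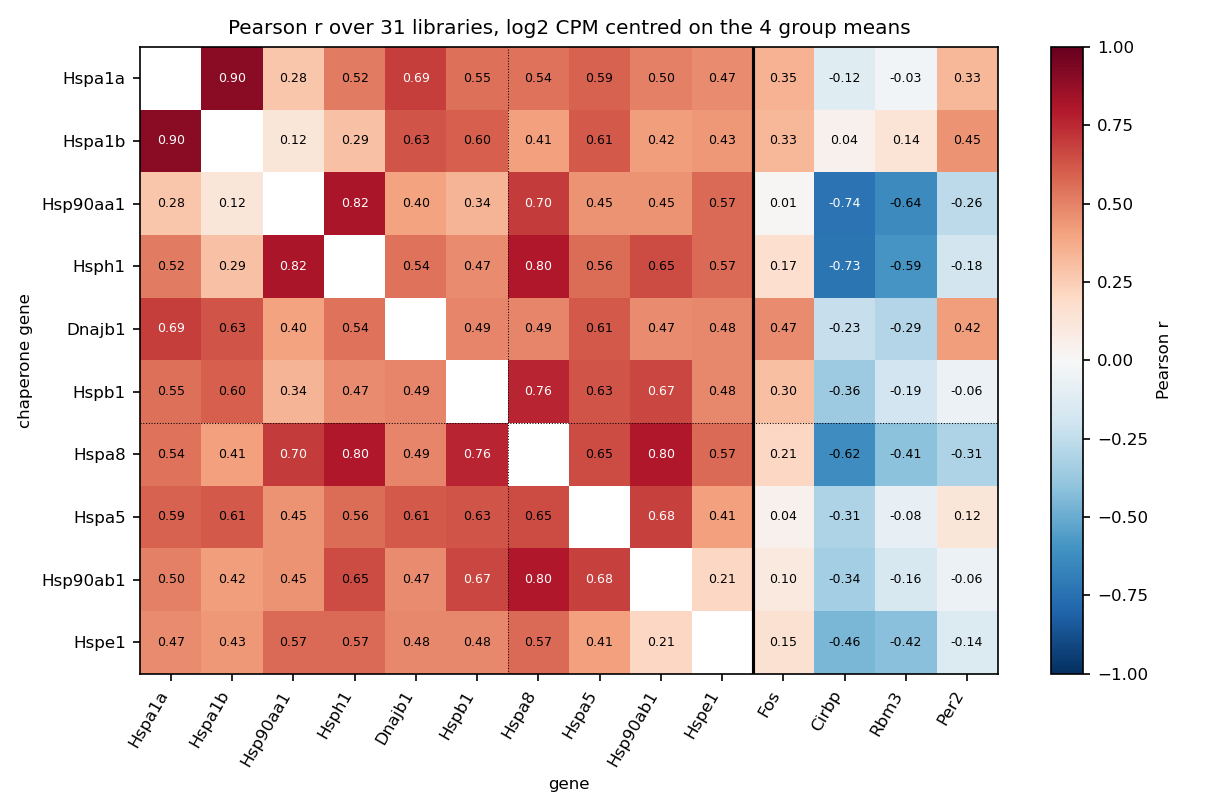
Pearson r of log2 CPM over 31 libraries after centring on the 4 group means, for the 10 chaperone genes with each other and with Fos, Cirbp, Rbm3 and Per2. Every pair of chaperone genes is positive (lowest 0.12), and Cirbp is most negative with Hsp90aa1 (-0.74) and Hsph1 (-0.73).

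Cirbp and Rbm3, RNA-binding proteins known to rise in the cold, ran opposite to part of the chaperone genes. Hsph1 and Cirbp had r = -0.80 and rho = -0.77 over the 31 libraries (adjusted permutation p = 4e-04 over 40 pairs), r = -0.74 without the 2 farthest libraries and r = -0.73 after centring on group means. Within the groups r was -0.84 in SIR males, -0.80 in control males, -0.90 in SIR females and -0.17 in control females, each over 7 or 8 animals and with no test. SIR male 14 had the highest Hsph1 of all libraries and the lowest Cirbp of the males (20.6 CPM), while SIR male 1 and control male 21 had the highest Cirbp (61.9 and 62.2 CPM) and the lowest Hsph1 of their groups. Hsp90aa1 and Cirbp had r = -0.73 and rho = -0.72 (adjusted permutation p = 6e-04), and r = -0.74 after centring. Among the 14885 other tested genes, Cirbp ranked 8th from the bottom by centred r with Hsp90aa1 and 9th with Hsph1.

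Of the constitutive genes, Hspa8 had r = -0.58 and rho = -0.62 with Cirbp (adjusted permutation p = 0.0036), and -0.62 after centring (adjusted permutation p = 0.0108). Without the 2 farthest libraries Hspa8 had r = -0.44 (adjusted permutation p = 0.104). Hspe1 and Cirbp had r = -0.43 (adjusted permutation p = 0.0507), and -0.46 after centring (adjusted permutation p = 0.017). Cirbp passed with 4 of the 10 genes before centring and with 4 after it. The opposition did not extend to all members. Hspa1a and Cirbp had r = 0.00 and Hspa1b and Cirbp 0.14. Hspa5 and Cirbp had r = -0.63 and rho = -0.70 (adjusted permutation p = 9e-04), but r = -0.31 once the groups were centred (adjusted permutation p = 0.156), and both genes differ between the sexes. Cirbp was higher in males, with a mean of 41.0 ± 12.2 CPM in SIR males, 46.1 ± 7.7 CPM in control males, 32.0 ± 4.8 CPM in SIR females and 23.2 ± 3.5 CPM in control females (SD), and a log2 fold change of 0.67 ± 0.10 for males over females (adjusted p = 0.000132). That change lay between 0.61 and 0.73 and passed with any 1 of the 31 libraries left out, among them SIR female 5. Rbm3 gave r = -0.68 with Hsph1 and -0.61 with Hsp90aa1, with rho of -0.72 and -0.64 (adjusted permutation p = 8e-04 and 0.00296). None of the 10 genes passed with Fos, the activity-dependent gene, where r ran from 0.02 to 0.41. The clock gene Per2 passed with Hspa1b and Dnajb1, both at r = 0.50 (adjusted permutation p = 0.0223), and with none after centring. The time of day at which tissue was taken and the animals' temperature are not given in the sources used here, and their part in these correlations was not tested.

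**Figure D4:**
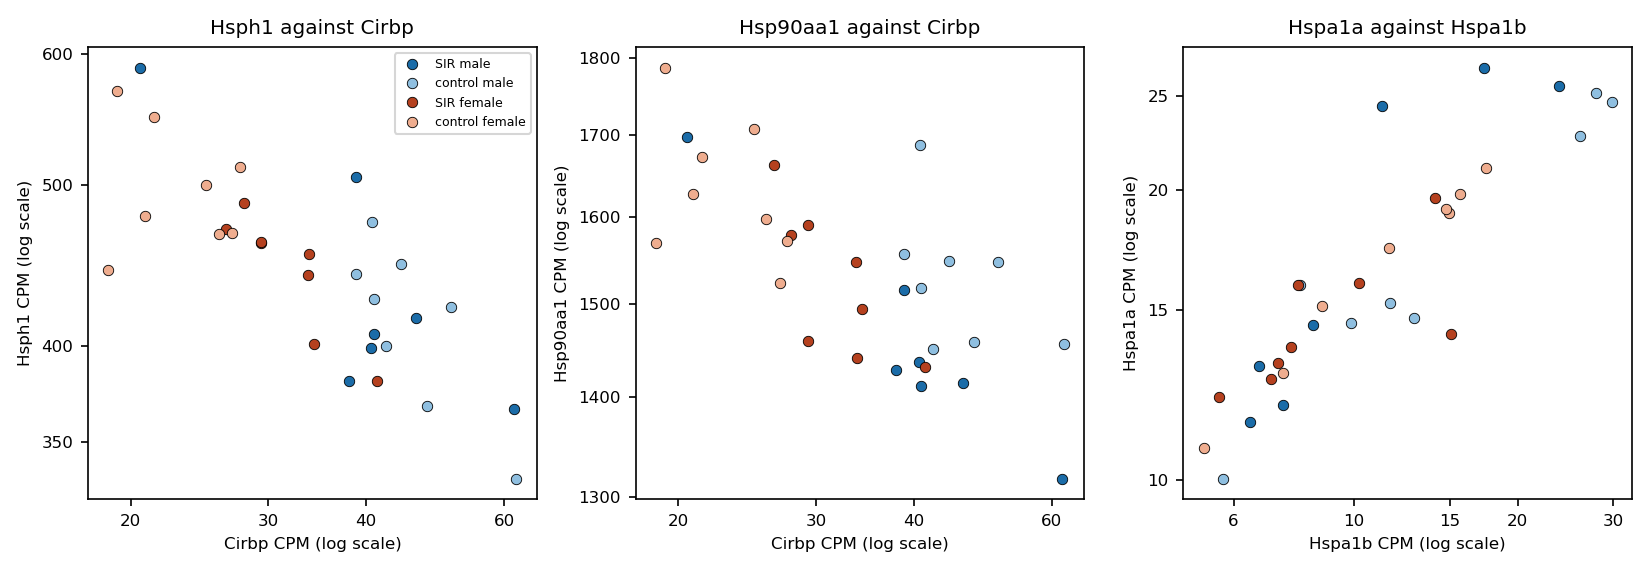
CPM of Hsph1 and Hsp90aa1 against Cirbp, and of Hspa1a against Hspa1b, on log axes, with 1 point per library coloured by group. Hsph1 and Hsp90aa1 are lower where Cirbp is higher (r = -0.80 and -0.73), and Hspa1a is higher where Hspa1b is (r = 0.89).

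Genes outside the 10 with the most similar pattern were found by centred Pearson r over the 31 libraries, 3 for each gene. For Hsp90aa1 they were Hspa4 (0.88), Hspd1 (0.83) and Stip1 (0.81), which encode an HSP110 relative, the mitochondrial chaperonin HSP60 and the cochaperone HOP that links HSP70 to HSP90. For Hsph1 they were Etv5 (0.84), Lman2 (0.83) and Stip1 (0.83). For Hspa5 they were Sfpq (0.78), Manf (0.78) and Pdia4 (0.77), the last 2 being ER-resident proteins. Manf also stood among the nearest of Hspa1a (0.73) and Hspa1b (0.77), beside P4ha1 (0.80) for Hspa1a and Sdf2l1 (0.74) for Hspa1b. For Hspa8 they were the ER J protein Dnajb11 (0.86), the ER lectin chaperone Calr (0.85) and Jup (0.85), and Dnajb11 was also near Hspb1 (0.76). For Dnajb1 the nearest was Dpf2 (0.79), for Hspb1 Bcat2 (0.77), for Hsp90ab1 Rangap1 (0.79) and for Hspe1 Hnrnpa2b1 (0.79).

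The wider folding machinery was read from lists of 115 other genes, of which 111 were tested. Over both sexes 4 rose and 5 fell in offspring of isolated mothers, which is 3.6% and 4.5%, beside 1.76% and 2.79% of all tested genes. The median fold change over the 111 genes was -0.01, equal to that of all genes at this rounding. The 4 that rose were Fkbp8 (0.13, adjusted p = 0.0216), Hspbp1 (0.15, adjusted p = 0.0319), Stub1 (0.12, adjusted p = 0.0477) and Hsbp1 (0.10, adjusted p = 0.0266). Hspbp1 releases nucleotide from HSP70, Stub1 encodes the ubiquitin ligase CHIP that acts on chaperone clients, and Hsbp1 binds heat shock factor 1. The 5 that fell were the J proteins Dnajc3 (-0.15), Dnajc18 (-0.10) and Dnajb4 (-0.14), the HSP110 relative Hspa4l (-0.19) and the mitochondrial protease Yme1l1 (-0.15), with adjusted p between 0.0171 and 0.036. Fkbp8, Hsbp1 and Dnajc18 passed with any 1 of the 31 libraries left out, whereas Stub1 passed in 11 of 31 such fits and Yme1l1 in 18. Under the 16 other settings each of the 9 calls was lost in some, namely 4 for Dnajc18 and Hspa4l, 5 for Dnajc3 and Dnajb4, 6 for Fkbp8, Hsbp1 and Hspbp1, 8 for Yme1l1 and 9 for Stub1, with adjusted p of at most 0.61. In males no gene of the 111 passed, beside 0.282% and 1.05% of all tested genes called higher and lower.

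In females 3 of the 111 genes rose (Hspbp1, Fkbp8 and Hsbp1) and 4 fell (Dnajc3, Dnajc18, Dnajc1 and Cryab), beside 2.38% and 2.24% of all tested genes. Dnajc3, an ER cochaperone of BiP, had a mean of 73.7 ± 6.1 CPM in SIR females and 85.8 ± 5.3 CPM in control females (SD, n = 8 each) and a log2 fold change of -0.22 ± 0.05 (adjusted p = 0.0137). Cryab, the small heat shock protein alpha-B crystallin, had a mean of 171 ± 17.8 CPM in SIR males and 137.1 ± 29.8 CPM in control males, and of 169.5 ± 21.8 CPM in SIR females and 225.4 ± 26.7 CPM in control females. Its female change was -0.41 ± 0.10 (adjusted p = 0.0218), and its male effect exceeded the female one by 0.73 ± 0.15 (adjusted p = 0.00584). Cryab is abundant in oligodendrocytes, whose summed markers had medians of 9648 CPM in SIR males, 8092 CPM in control males, 9229 CPM in SIR females and 11720 CPM in control females. Of these 10 markers 7 passed the same test of the male against the female effect, with a positive difference as for Cryab. Their part in the Cryab result was not tested. Tomm34, a cochaperone of mitochondrial import, also passed the test of the male against the female effect, at 0.26 ± 0.07 (adjusted p = 0.0308). In females Dnajc3, Dnajc18 and Cryab passed with any 1 library left out, against 20 of 31 such fits for Hspbp1, 17 for Fkbp8, 15 for Hsbp1 and 9 for Dnajc1. Of the 16 other settings, 2 ended the call of Dnajc3 and that of Cryab (without the 8 libraries whose numbers lie apart, and with region marker scores), 7 that of Dnajc18, 9 those of Hspbp1 and Fkbp8 and 10 those of Hsbp1 and Dnajc1.

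Between the sexes, 7 of the 111 genes were higher and 10 lower in males, which is 6.31% and 9.01%, beside 4.44% and 5.65% of all tested genes. Of the 27 genes of ER folding and stress, 5 were lower in males and 1 was higher. The lower ones were Hsp90b1 (-0.21, adjusted p = 0.00134), Sel1l (-0.12), Calr (-0.18), Pdia3 (-0.15) and Dnajc3 (-0.14), which encode the ER HSP90, a part of the degradation machinery, a lectin chaperone, a disulfide isomerase and the cochaperone named above. Hsp90b1 had a mean of 414.4 ± 42.4 CPM in SIR males and 396.1 ± 31.9 CPM in control males, against 445.9 ± 24.98 CPM in SIR females and 492.7 ± 28.2 CPM in control females, and so was highest in the same group as Hspa5. Herpud1, a gene of ER-associated degradation, was higher in males at 0.19 (adjusted p = 0.01). Dnajc1, a J protein of the ER membrane that stood in the list of other J proteins, was also lower in males (-0.18). The 9 choroid plexus markers all had negative fold changes in this comparison, 4 passed as lower in males and their median was -1.58. The 10 oligodendrocyte markers were all negative too, 4 passed as lower in males and their median was -0.155. Of the 8 forebrain markers tested, 3 passed as lower and 0 as higher. The part of these markers in the sex differences, that of Cryab among them, was not tested. With region marker scores in the fit, Hspa5 had an adjusted p of 0.209, as given above. Of the 16 other settings, 2 ended the calls of Calr and Pdia3, 4 that of Dnajc3, 6 those of Sel1l and Dnajc1 and 1 that of Herpud1. In the remaining lists Hspa4l (-0.20), Chordc1 (-0.23), St13 (-0.11) and Cryab (-0.35) were lower in males, and Fkbp5 (0.31), Hsf4 (0.23), Stub1 (0.11), Fkbp8 (0.11), Bag6 (0.08) and Cct2 (0.08) were higher. Hsp90b1 and Cryab passed under all 16 other settings run and with any 1 library left out, whereas Cct2 passed in 8 of 31 such fits and Stub1 in 16.

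**Figure D5:**
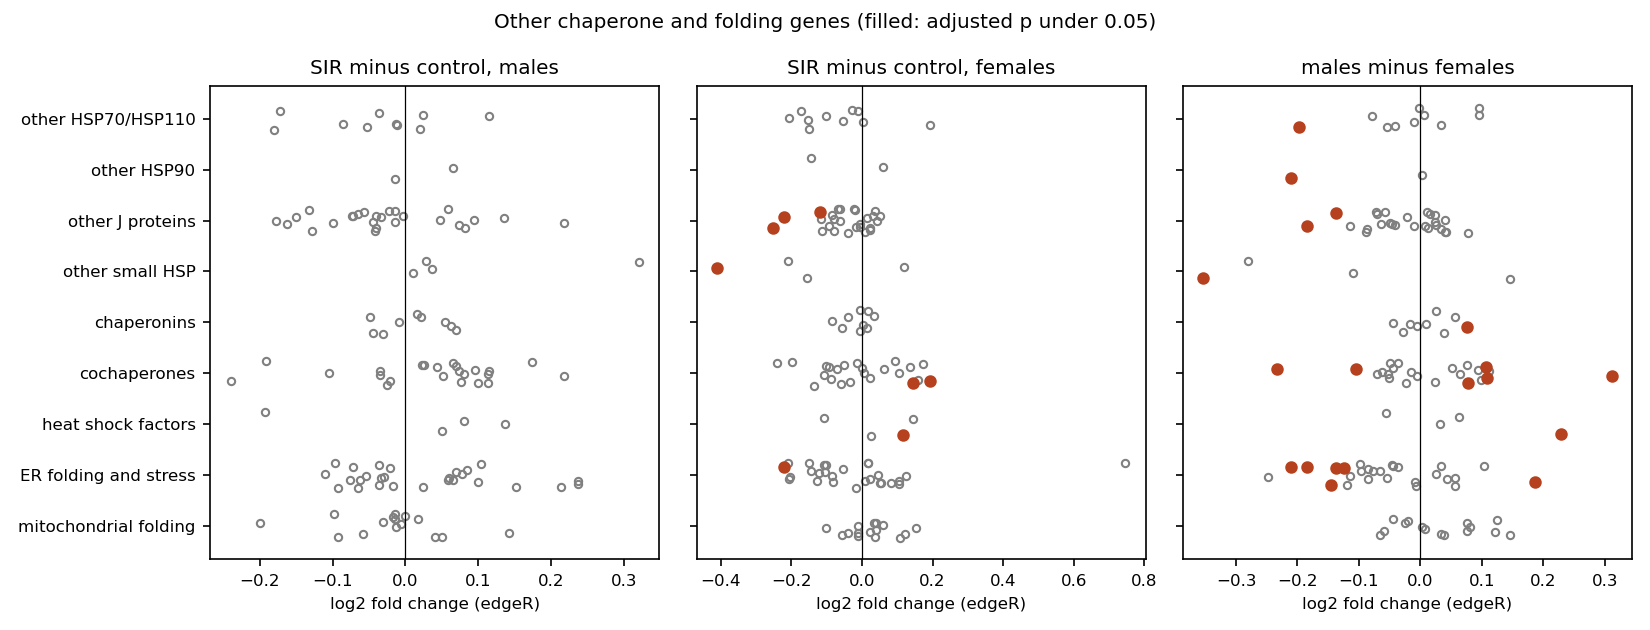
Log2 fold changes of the tested genes of 9 lists of chaperone and folding genes for SIR minus control in males, SIR minus control in females, and males minus females. Each point is 1 gene and filled points passed an adjusted p of 0.05. No filled point stands in the male panel, and 5 ER genes stand on the lower side of the panel for the sexes.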

How the data were processed

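Bulk RNA-seq libraries of the thalamus of 31 mice were grouped by maternal housing and sex from the labels (7 SIR male, 8 control male, 8 SIR female and 8 control female libraries). Per the labels' protocols, extraction was by the Qiagen AllPrep kit and library preparation by an Illumina kit for stranded mRNA. Per the submitters' processing notes, FastQC, kallisto and the build GRCm39 were used, and no versions are stated there. For 105878 transcripts per library, the deposited tables give the estimated count, the TPM and the effective length, per the file headers. Estimated counts need not be whole and show no sign of normalization by the authors. The TPM that the authors deposited is scaled for length to a fixed total per library. No source used here states whether kallisto used read strand, so values of overlapping or antisense genes are uncertain.

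Gene names came from GENCODE M21 by transcript identifier, of the older build GRCm38. This gave 104949 transcripts of 25497 genes, and the 929 unmatched transcripts, with 0.689% to 0.755% of counts, were left out. Gene sums of the estimated counts were rounded. Totals ran from 13 to 25.74 M (mega) counts, and every pair of libraries of 1 group differed by more than sampling noise. With edgeR 4.0.16, genes were filtered by filterByExpr (14886 kept), scaled by TMM and fitted with 4 group means by the robust quasi-likelihood method, after a test on simulated data. The 5 comparisons used Benjamini-Hochberg adjustment over all tested genes with a threshold of 0.05. Levels are CPM on TMM-scaled totals, and fold changes are log2 ± SE. Correlations used log2 CPM (prior count 2) with 100000 permutations. The p-values cover only the variation among these libraries, and litter mates, if any, were counted as separate.

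The members and the lists were chosen with earlier results of these data known. The rule for named genes was all 10 members, up to 6 listed genes per list and direction past the threshold by smallest p, and the 3 nearest genes of each member. The Y-linked and immediate early lists served as label and activity checks: of 15 tested immediate early genes, Jun was higher in SIR animals over both sexes (log2 0.22) and Arc and Egr3 were lower in males (log2 -0.47 and -0.84). Alternatives used DESeq2 1.42.0 and limma 3.58.1, among other settings named in the closing section.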

Additional observations from a re-analysis of the deposited data

Results flagged for a closer look

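In control males, the Hsp90aa1 level of library 19 stood apart from the rest of its group, at 1687 CPM with the next library at 1556 CPM. In the same group, the Hspa8 level of library 21 stood apart at the low end, at 2434 CPM with the next library at 2785 CPM. These are 2 of 40 groups of a chaperone gene examined in this way, and chance alone flags about 5% of groups. Control male 21 also had the lowest Hsph1 (332.5 CPM) and the highest Cirbp (62.2 CPM) of its group.

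The male effect of maternal housing exceeded the female one for Cryab by 0.73 on the log2 scale and for Tomm34 by 0.26, by the interaction test in edgeR with adjusted p of 0.00584 and 0.0308. The Cryab difference passed under 16 of 16 alternative settings and in all 31 fits that left out 1 library. The Tomm34 difference passed under 13 of 16 settings and in 26 of 31 such fits.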

How the results depend on the processing

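Each comparison was repeated under 16 other settings and with each of the 31 libraries left out in turn. No paired analysis was possible because the groups share no replicate numbers. With 10 genes and small effects, the number of chaperone genes called moved by 1 or 2 genes. Over both sexes it was 0 and became 1 (Hsp90aa1) with limma-voom and sample weights, on log2(TPM + 1), on log2(TPM + 0.1) and with region marker scores as covariates, the last setting chosen after seeing the data, and it lay between 0 and 1 with 1 library left out. In females it was 1 (Hspa5) and became 0 without the low-count filter (adjusted p = 0.0558), on both TPM scales (0.0904), without SIR female 5 (0.0573), without the 8 libraries whose numbers lie apart (0.185) and with region scores (0.0549), and it lay between 0 and 1 with 1 library left out. The Hspa5 difference itself stayed between -0.33 and -0.20. Leaving out SIR females 2, 3, 5, 7, 9 or 12 or control females 17, 18, 20, 26, 29 or 30 ended that call, with adjusted p of at most 0.0773. For the difference between the male and female effect the number was 0 and became 1 (Hspa8) with region scores. Between the sexes it was 1 (Hspa5) and became 0 without the filter, on both TPM scales, without the 8 libraries and with region scores, 3 with limma-voom, and between 0 and 3 with 1 library left out, the 3 being reached without SIR male 14 and 0 without SIR males 1, 4, 8, 13 or 15, SIR females 7, 10, 11 or 12, control males 21, 27 or 28, or control females 17, 18, 20 or 26. The 10 called correlations with Fos, Cirbp, Rbm3 and Per2 became 6 after centring, 5 without the 2 farthest libraries and 12 with the length trend removed, and stayed 10 without SIR female 5. Over all tested genes, the number called was 678 over both sexes and lay between 0 (without the 8 libraries) and 1277 (limma-voom) under the other settings, and was 198 in males and lay between 36 (length trend removed) and 693 (region scores). Among the 10 chaperone genes, the male comparison gave 0 calls under every setting run, and between 34 and 39 of their 45 pairs passed. The cause of these changes was not tested.

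Fold changes that turned sign were all of genes that had not passed the test of that comparison. Most were small, but the male minus female effect of Hspa1b, -0.135 as reported, and the male change of Hspa1a moved as far as the called Hspa5 differences. With surrogate variables, the log2 change over both sexes was -0.011 for Hspa8 and -0.039 for Hsp90ab1, that of Hspa1a in males -0.089, the male minus female effect of Hspb1 0.017 and the sex difference of Hsp90ab1 -0.025. With region scores, Hspa8 was -0.037 and Hsp90ab1 -0.034 over both sexes, Hspa1a -0.056 in males, Hspe1 -0.048 in females and Hspb1 0.045 between the sexes, and the male minus female effect was 0.128 for Hspb1 and 0.314 for Hspa1b. With limma-voom, Hsp90ab1 was -0.012 over both sexes and -0.005 between the sexes, Hspa1a -0.203 in males and Hspe1 -0.015 in females. On log2(TPM + 1) and log2(TPM + 0.1), Hsp90ab1 was -0.014 on both scales over both sexes and -0.002 between the sexes, Hspa1a -0.039 and -0.043 in males, Hsph1 -0.016, Hspa5 -0.048, and the male minus female effect of Hsp90aa1 -0.069 and -0.07. With the length trend removed, Hsp90ab1 was 0.00 and Hspe1 -0.013 over both sexes, and Hspe1 -0.043 in females. Without the 8 libraries, Hsp90ab1 was -0.029, Hspa1a in males -0.141 and the male minus female effect of Hspb1 0.046. Without the 2 shallowest libraries, Hspe1 in females was -0.016, and the male minus female effect was 0.092 for Hspa1b and 0.059 for Hspb1. Upper-quartile scaling gave 0.009 for Hspb1 in that comparison, and summing Hspa1a with Hspa1b gave -0.201 in males. With 1 library left out, Hsp90ab1 ran from -0.007 to 0.014 over both sexes and from -0.006 to 0.015 between the sexes, and Hspb1 from -0.051 to 0.032 between the sexes. In males Hspa1a ran from -0.078 to 0.128 and Hsph1 from 0.00 to 0.126. In females Hspb1 ran from -0.103 to 0.012 and Hspe1 from -0.021 to 0.038. The male minus female effect ran from -0.004 to 0.059 for Hsp90aa1, from -0.4 to 0.049 for Hspa1b and from -0.097 to 0.05 for Hspb1.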
